A study of Rattus norvegicus with 30 samples.

Results

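Livers of adult male rats given DE-71, a commercial flame retardant made of polybrominated diphenyl ethers (PBDEs), were compared with livers of rats given the vehicle by taking the 10 arrays of week 13, which are 10 of the 30 arrays in the series. Array numbers 26 to 30 carried 5 livers of the 50 mg/kg group and array numbers 21 to 25 carried 5 livers of the 0 mg/kg group, all in 1 array batch. The rats were male Wistar/Han. Their dams had received 0 or 50 mg/kg of DE71 in corn oil by gavage on 7 days per week from gestation day 6, the young were then dosed themselves up to postnatal day 21, and dosing went on after weaning on 5 days per week. Both groups therefore share the gavage, and the exposed animals carried an exposure that began before birth and had not ended in adulthood. The labels call the 0 mg/kg animals untreated, while the protocol gives them corn oil. They are called vehicle livers here and the others DE-71 livers, with the replicate numbers of the sample titles. The protocol gives 10 males per dose at week 13, no 2 of a dose group from the same dam, and 5 of each were measured. A single dose was used, and each array read RNA of a liver section with all its cell types, so fewer cells of a type and less RNA per cell cannot be told apart. Hepatocyte markers were high in both groups, with the mean level of 11 of them between 14.09 and 14.26 in vehicle livers and between 14.04 and 14.16 in DE-71 livers on the log2 scale of the arrays, on which array medians lay between 5.72 and 5.77. The later comparison of ages also uses livers of 5 male pups of 50 mg/kg and 5 of 0 mg/kg at postnatal day 22, from another array batch. The main fit takes its spread from all 30 arrays, so its SEs and adjusted p-values also reflect the variation among pups. Besides the male pups these arrays include 5 female pups of 0 mg/kg (batch 1) and 5 of 50 mg/kg (batch 2), also of postnatal day 22.

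The liver answers halogenated aromatic compounds through receptors that switch on genes of drug clearance. The aryl hydrocarbon receptor (AhR) induces the Cyp1 family. The constitutive androstane receptor (CAR) and the pregnane X receptor (PXR) induce Cyp2b and Cyp3a enzymes, conjugating enzymes and export pumps, and NRF2 induces genes that protect against electrophiles. Brominated diphenyl ethers are known as CAR and PXR activators in rodent liver. Induced conjugation is also known for speeding the loss of thyroid hormone.

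The promoter windows of the genes with the largest changes were read from RefSeq (GRCr8) for the short motifs that AhR, NRF2 and clock factors recognise. The windows ran from 250 bases before to 50 bases after each gene's start, and both strands were searched. The 15 largest increases included 11 genes with a window and the 15 largest decreases 13. No window was available for Cyp1a1, Abcc3, Prss8 and Nipal2 among the increases or for Socs2 and Zfp189 among the decreases. Their promoters were therefore not searched. The AhR core motif GCGTG stood in 5 of the 11 windows of increased genes (45.5%) and in 5 of the 13 of decreased genes (38.5%), against 45.8% of the 11734 measured genes with a window and 31.1% of all 27457 windows. The NRF2 core motif TGACNNNGC stood in 1 of the 11 and 4 of the 13, against 14.4% of measured genes and 12.2% of all windows. The E-box CACGTG stood in 0 of the 11 and 4 of the 13, against 8.91% and 6.65%. For the AhR and NRF2 motifs, 1 window is shown, with the match in capitals. It is that of the most increased gene among those with a window that held the motif. That of Snx10 lies at chr4:81943073-81943372 on the plus strand and that of Gsta3 at chr9:31154739-31155038 on the plus strand.
Snx10: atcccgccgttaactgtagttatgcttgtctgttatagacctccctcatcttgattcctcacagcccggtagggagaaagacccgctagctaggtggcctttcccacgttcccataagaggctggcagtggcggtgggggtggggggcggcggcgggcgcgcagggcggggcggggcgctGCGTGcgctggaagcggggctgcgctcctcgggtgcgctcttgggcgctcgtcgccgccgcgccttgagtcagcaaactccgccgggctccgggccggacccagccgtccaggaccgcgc
Gsta3: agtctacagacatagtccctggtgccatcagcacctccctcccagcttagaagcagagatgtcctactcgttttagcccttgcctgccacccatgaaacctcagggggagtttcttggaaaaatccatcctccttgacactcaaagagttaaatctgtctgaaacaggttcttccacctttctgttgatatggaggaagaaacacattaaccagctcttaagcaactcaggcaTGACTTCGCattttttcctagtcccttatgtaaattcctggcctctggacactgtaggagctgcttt
These letters describe the windows and are not evidence of binding.

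Across the 31042 probe sets tested, 924 (2.98%) differed between DE-71 and vehicle livers at a false discovery rate of 0.05, of which 414 were higher and 510 lower with DE-71. At least 2-fold changes were found for 72 higher and 39 lower probe sets, and at least 4-fold changes for 15 and 5. Read as genes, 555 of 14217 (3.9%) were called, 265 higher (1.86%) and 290 lower (2.04%), and 652 genes (4.59%) had DE-71 and vehicle values that did not overlap. The median change over all genes was 0.01. By limma, 5076 of the 31042 probe sets had an unadjusted p under 0.05. Counts in the gene lists below are to be read beside these array-wide counts and shares. With the 10 adult arrays fitted alone, so that only these livers gave the spread, 269 probe sets were called (144 higher and 125 lower), 250 of them also called with all 30 arrays sharing the spread. DE-71 replicate 5 stood apart: the difference between its 3' and 5' Gapdh control probe sets, which grows as RNA degrades, was 2.25, against 0.73 to 1.04 in the other DE-71 livers and 0.32 to 0.78 in vehicle livers. The group means were 1.17 ± 0.62 and 0.62 ± 0.18 (SD, n = 5 each, two-sided exact permutation p = 0.0238, adjusted over 6 quality measures 0.143, smallest possible unadjusted p 0.00794). Without that array 620 probe sets (291 higher, 329 lower) and 372 genes were called, and with the Gapdh difference as a covariate 425 genes. Of the 555 genes, 330 were still called without that array and 345 with the covariate. The part of DE-71 replicate 5 in the single results was not tested beyond these fits. Without DE-71 replicate 4, 597 probe sets (286 higher, 311 lower) and 366 genes were called. Arrays were numbered consecutively within each group, so an effect of their order cannot be told apart from dose.

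**Figure D1:**
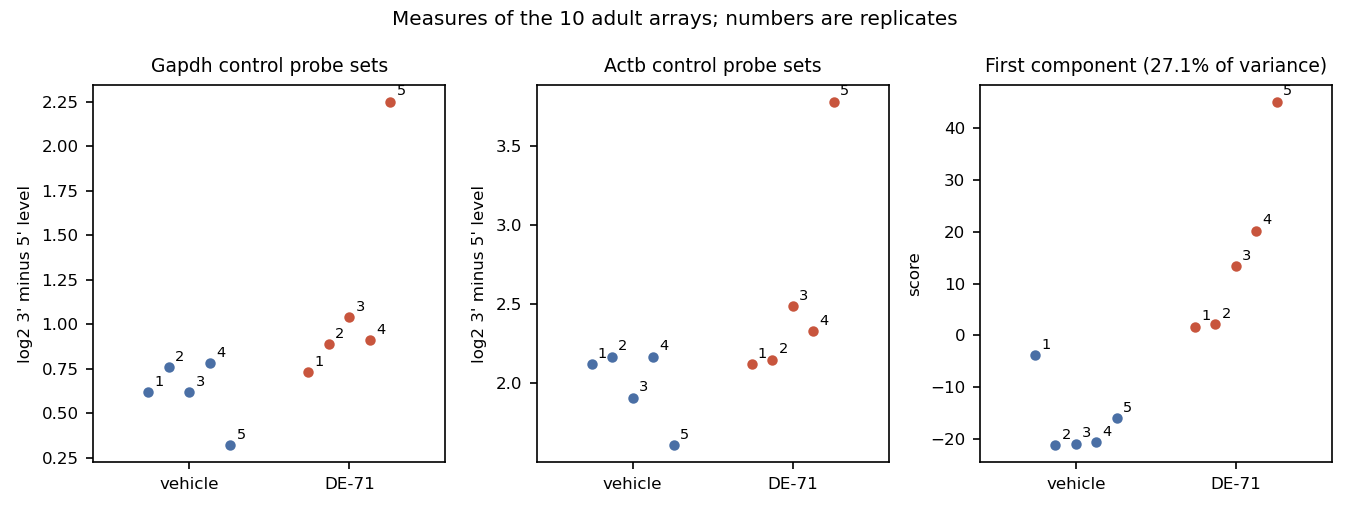
Points show each of the 10 adult arrays, labelled by replicate; the left and middle plots give how far the 3' control probe set of Gapdh or Actb lay above the 5' one (log2), and the right plot the score on the first principal component, which held 27.1% of the variance. DE-71 replicate 5 is highest in all 3 (2.25, 3.78 and 45.1), while vehicle livers score -3.8 or less on the component and the other DE-71 livers 1.7 to 20.2.

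Genes of the AhR battery rose, led by Cyp1a1, the oxidase most tightly controlled by this receptor. Cyp1a1 lay at 6.68, 7.23, 4.83, 6.69 and 5.77 in the vehicle livers and at 12.8, 12.18, 12.69, 14.02 and 12.3 in the DE-71 livers. Every DE-71 liver was far above every vehicle liver, and vehicle replicate 3 was the lowest of all. The change was log2 6.56 ± 0.44 (SE), or 94.4-fold (adjusted p = 3.05e-11). Cyp1a2, a drug and caffeine oxidase, lay at 12.26 in vehicle replicate 3 and at 13.5 to 13.79 in the other vehicle livers, and at 14.08 to 14.42 with DE-71. Its groups did not overlap, and the change was 0.94 ± 0.18 (adjusted p = 0.00204, and 0.103 with the 10 arrays alone, the range over all alternatives being 4.25e-04 to 0.103). Nqo1, a quinone reductase shared by AhR and NRF2, rose by 0.97 ± 0.26 from 9.91 ± 0.49 to 10.88 ± 0.73 with overlapping groups (adjusted p = 0.0346). That call was lost without any 1 of vehicle replicates 1, 3 and 5 and DE-71 replicates 1, 3, 4 and 5 (adjusted p up to 0.124), within a range of 0.00207 to 0.202. Of 7 measured AhR targets these 3 rose and 0 fell (2 and 0 without DE-71 replicate 5), with a median change of 0.94 against 0.01 over all genes. Cyp1b1, a Cyp1 enzyme of low level in liver, stood at 5.24 ± 0.24 and 5.26 ± 0.09 (adjusted p = 0.994), and Aldh3a1, an aldehyde dehydrogenase, at a change of 1.06 (adjusted p = 0.304). Ahr itself changed by 0.64 ± 0.35 (adjusted p = 0.375): 3 DE-71 livers lay at 7.52 to 7.91, above all vehicle livers (6.35 to 6.74), while DE-71 replicate 2 was lowest of all at 5.66.

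Among targets of CAR and PXR 11 of 19 measured members rose and 0 fell (10 and 0 without DE-71 replicate 5), with a median change of 0.54 and 18 of 19 above 0. Abcc3, an export pump that moves glucuronides from hepatocytes into blood, lay at 5.14, 4.99, 5.99, 4.98 and 4.99 in vehicle livers and at 9.26, 8.02, 9.03, 9.12 and 9.69 with DE-71. No value of one group reached the other, and the change was 3.81 ± 0.25 (adjusted p = 3.05e-11). Ces2c, a carboxylesterase that hydrolyses ester drugs, lay at 8.63, 8.69, 8.45, 8.56 and 8.52 and rose to 10.73, 10.08, 11.03, 10.7 and 10.79. The vehicle livers were tightly grouped, with every DE-71 liver more than 1 log2 unit above them (change 2.09 ± 0.21, 4.27-fold, adjusted p = 1.56e-07). Ugt2b1, which attaches glucuronic acid to steroids and drugs, lay at 12.32, 11.85, 12.07, 11.92 and 12.05 and rose to 14.04, 13.58, 13.76, 13.81 and 13.81. Its groups were again fully apart (1.75 ± 0.12, 3.37-fold, adjusted p = 3.05e-11). Gadd45b, a stress gene that CAR activators induce, rose by 1.66 ± 0.20 (6.45 ± 0.07 to 8.11 ± 0.54). Aldh1a1, an aldehyde dehydrogenase that makes retinoic acid, rose by 1.54 ± 0.16 (11.61 ± 0.37 to 13.15 ± 0.21). Por, the reductase that feeds electrons to microsomal P450 enzymes, rose by 1.15 ± 0.14, from 9.13 to 9.28 in vehicle livers to 9.86 to 10.78 with DE-71 (adjusted p = 5.34e-06). Ephx1, microsomal epoxide hydrolase, rose by 0.77 ± 0.13 (adjusted p = 7.80e-04).

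The measured changes of the Cyp3a and Cyp2c enzymes named here from the same list were small. Some lay high in vehicle livers already, such as Cyp3a23-3a1 (13.92 ± 0.16) and Cyp3a2 (14.37 ± 0.17). Whether probe sets at such levels could show a larger rise was not tested. Cyp3a23-3a1, the classic PXR target of rat liver, lay at 13.68 to 14.09 in vehicle livers and at 14.33 to 14.56 with DE-71, without overlap (0.54 ± 0.09, adjusted p = 6.09e-04). Cyp3a2, its male-predominant relative, rose by 0.31 ± 0.07 with slightly overlapping groups (adjusted p = 0.00913, and 0.148 with the 10 arrays alone, range 0.00244 to 0.148). Cyp2c6v1 rose by 0.45 ± 0.06 (adjusted p = 4.25e-05). Abcc2, the pump that exports conjugates into bile, rose by 0.60 ± 0.15 (adjusted p = 0.0183), a call lost without DE-71 replicate 4 or 5 (adjusted p up to 0.0742) and with the 10 arrays alone (0.0799), range 0.00295 to 0.0799. Cyp2a1, a testosterone hydroxylase, changed by 0.42 ± 0.12 (adjusted p = 0.0505), and Alas1, which starts haem synthesis, by 0.58 (adjusted p = 0.157). The receptor genes did not pass the test: Nr1i2, which encodes PXR, changed by -0.03 ± 0.09 (adjusted p = 0.902) and Nr1i3, which encodes CAR, by -0.15 ± 0.19 (adjusted p = 0.763). Of 12 receptors and partners, 2 rose. Keap1, which holds NRF2 in check, rose by 0.55 ± 0.09 with groups apart (8.76 ± 0.13 to 9.31 ± 0.11, adjusted p = 2.82e-04). Nr1h4, the bile acid receptor, rose by 0.36 ± 0.10 (adjusted p = 0.0342), a call lost without any 1 of vehicle replicates 1, 2 and 3 and DE-71 replicates 1, 2 and 4 (adjusted p up to 0.0992), range 0.0171 to 0.129. Cyp2b1 and Cyp2b2 were not analysed here.

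**Figure D2:**
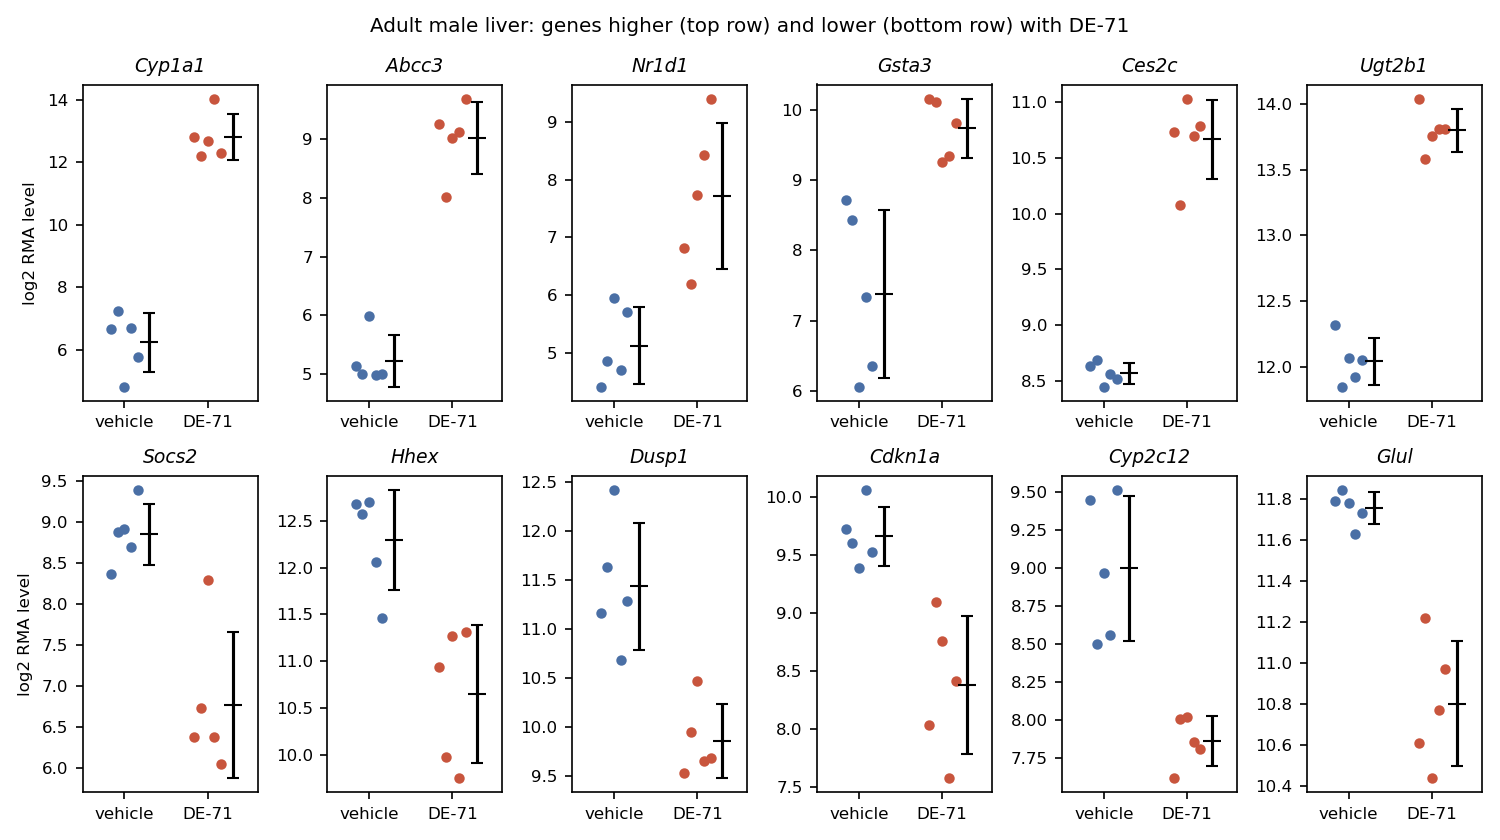
Points are log2 RMA levels of single adult livers, with black marks for the mean and SD of 5 livers; each gene has its own vertical scale. DE-71 and vehicle livers do not overlap for any of the 12 genes, from Cyp1a1 (4.83 to 7.23 against 12.18 to 14.02) to Glul (11.63 to 11.84 against 10.44 to 11.22). All but Glul were taken from the largest changes, which were limited to called genes without overlap.

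Conjugation and antioxidant genes rose in part. Among 19 measured glutathione transferases, enzymes that join glutathione to electrophiles, 4 rose and 0 fell, with a median change of 0.03 (0.09 without DE-71 replicate 5 and 0.15 with the Gapdh covariate, with 4 called in each). Gsta3 lay at 8.72, 8.44, 6.06, 7.33 and 6.35 in vehicle livers and at 10.15, 10.12, 9.26, 9.35 and 9.82 with DE-71. The vehicle livers were spread over more than 2 log2 units and all lay below the lowest DE-71 liver (2.36 ± 0.33, 5.14-fold, adjusted p = 4.67e-05). Gstm3 rose by 1.14 ± 0.19 (adjusted p = 7.89e-04), Gsta4 by 0.59 ± 0.09 (adjusted p = 1.86e-04) and Mgst2, a membrane-bound member, by 0.45 ± 0.09 (adjusted p = 0.003). Gstp1, a form often raised in preneoplastic rat liver, changed by -0.45 ± 0.45 (adjusted p = 0.679). Of 19 NRF2 targets 4 rose and 0 fell (median 0.23): Me1, Nqo1, Ephx1 and Gsta4. Several defining NRF2 targets were not called, among them Gclc (-0.17), which makes the glutathione precursor, Hmox1 (-0.35), which degrades haem, Srxn1 (0.41) and Txnrd1 (0.23). Of 18 glucuronosyl- and sulfotransferases 2 rose, Ugt2b1 and Ugt2b10 (0.54 ± 0.10, adjusted p = 0.00112), and 0 fell. Ces2c was the 1 of 5 measured carboxylesterases to rise.

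Of 19 measured transporters 2 rose, the pumps Abcc3 and Abcc2, 3 uptake carriers fell and 14 were not called, with a median change of 0.00. Slc22a7, an uptake carrier for organic anions, lay at 10.78 to 10.98 in vehicle livers and at 10.23 to 10.6 with DE-71, without overlap (-0.47 ± 0.09, adjusted p = 0.0016). Slco1a1, another anion carrier, fell by 0.38 ± 0.11 (adjusted p = 0.0484) and Slc10a1, the main bile acid carrier, fell by 0.28 ± 0.07 (adjusted p = 0.0245). The Slco1a1 call was lost without any 1 of vehicle replicates 1, 2, 3 and 5 and DE-71 replicates 1, 2 and 5 (adjusted p up to 0.165, range 0.0309 to 0.183), and that of Slc10a1 without any 1 of vehicle replicates 1 and 2 and DE-71 replicates 4 and 5 (adjusted p up to 0.0792, range 0.0144 to 0.0958). Without DE-71 replicate 5, 1 transporter was higher and 1 lower. The sterol exporters Abcg5 (-0.97, adjusted p = 0.0875) and Abcg8 (-0.61, adjusted p = 0.324) were not called.

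Outside drug clearance the largest increases were of mixed function. Snx10, a sorting nexin of endosomes, lay at 4.54, 4.52, 4.49, 5.03 and 4.35 in vehicle livers and at 7.96, 6.91, 8.04, 8.7 and 7.67 with DE-71. All vehicle values were below the array medians and all DE-71 values above them (3.27 ± 0.30, adjusted p = 4.05e-08). Prss8, the membrane protease prostasin, rose from 5.55 to 5.86 in vehicle livers to 7.1 to 9.15 (2.66 ± 0.25, adjusted p = 5.58e-08). Further increases without overlap were those of the guidance factor Sema3c (1.96 ± 0.40), Nipal2 (1.95 ± 0.18), the flippase subunit Tmem30b (1.92 ± 0.23), Tpd52l1 (1.81 ± 0.19), the glutamate receptor subunit Grin2c (1.72 ± 0.19) and the F-box gene Fbxo27 (1.69 ± 0.12). Sema3c had the largest adjusted p of these 6 (0.00489). Asns, which makes asparagine, lay at 5.25, 5.32, 5.15, 5.24 and 5.3 in vehicle livers and at 6.94, 6.7, 7.05, 7.59 and 6.65 with DE-71. Its vehicle livers hardly varied and all DE-71 livers were more than 1 log2 unit higher (1.73 ± 0.41, adjusted p = 0.0149). Without DE-71 replicate 4 the adjusted p was 0.0535, within a range of 2.13e-04, with the 10 arrays alone, to 0.0535.

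Serine and amino acid genes related to Asns were mixed. Of 16 genes of the amino acid starvation response 2 rose and 1 fell. Phgdh, which starts serine synthesis, changed by 1.34 (adjusted p = 0.0641, and 0.0169 with the 10 arrays alone), whereas Psph, which ends that pathway, fell by 0.46 ± 0.12 (adjusted p = 0.0345). Vldlr, a lipoprotein receptor, rose by 0.34 ± 0.09 (adjusted p = 0.0321), with 1 of 4 probe sets called and levels below the array medians in both groups. The Psph call was lost without any 1 of vehicle replicates 2, 3 and 4 and DE-71 replicates 4 and 5 (adjusted p up to 0.129, range 0.0164 to 0.155). That of Vldlr was lost without any 1 of vehicle replicates 1, 2 and 4 and DE-71 replicates 1, 3, 4 and 5 (adjusted p up to 0.0977, range 0.0144 to 0.112). The regulators Atf4 (-0.05) and Ddit3 (0.02) and the target Trib3 (0.37) were not called.

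Genes of lipid synthesis moved in part, and cholesterol synthesis did not pass the test. Of 23 fatty acid and triglyceride genes 3 rose and 0 fell, with a median of 0.19. Me1, malic enzyme, which supplies NADPH and responds to thyroid hormone, lay at 8.67, 8.69, 9.07, 9.35 and 8.84 in vehicle livers and at 10.73, 10.3, 9.71, 10.94 and 9.84 with DE-71, without overlap (1.38 ± 0.20, 2.60-fold, adjusted p = 1.07e-04). Elovl6, which lengthens palmitate, rose by 1.43 ± 0.33 from 5.78 to 6.67 in vehicle livers to 6.89 to 8.16 (adjusted p = 0.014). Acaca, acetyl-CoA carboxylase, rose by 0.91 ± 0.20 (adjusted p = 0.00976). Fasn (0.86, adjusted p = 0.0741) and Acly (0.68, adjusted p = 0.122) were not called. Among 20 cholesterol synthesis genes 0 were called in either direction (median 0.12, range -0.24 to 0.46), with 13 above 0 and, by limma, 2 at an unadjusted p under 0.05. Of 21 PPARalpha and fatty acid oxidation genes 1 was called (4.8%, against 3.9% of all genes). Cyp4a8 rose by 2.07 ± 0.43 with overlapping groups (6.79 ± 0.87 to 8.86 ± 1.01, adjusted p = 0.0053, and 0.0773 with the 10 arrays alone, range 7.16e-04 to 0.0773). Cyp4a1, a classic PPARalpha target, changed by -0.15 ± 0.22 (adjusted p = 0.795).

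Bile acid synthesis was not called apart from the receptor gene Nr1h4, 1 of 13 members. Cyp7a1, the rate-limiting enzyme, lay at 8.88, 9.43, 7.8, 9.34 and 8.59 in vehicle livers and at 7.63, 8.56, 9.05, 11.31 and 11.06 with DE-71. DE-71 replicates 4 and 5 were higher than all other livers and DE-71 replicate 1 was the lowest, so the groups overlapped (0.71 ± 0.49, adjusted p = 0.51).

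Of 15 measured genes of thyroid hormone handling and response 3 were called, a higher share than the 3.9% of all genes. Serpina7, thyroxine-binding globulin, lay at 8.33, 9.21, 7.86, 8.28 and 7.96 in vehicle livers and at 7.93, 6.96, 7.08, 5.62 and 7.73 with DE-71. The DE-71 livers were lower apart from replicate 1, which lay within the vehicle range, and the change of -1.27 ± 0.39 missed the threshold (adjusted p = 0.0696). In that list Ugt2b1 and Me1 rose and Crym, an intracellular binder of the hormone, fell by 0.85 ± 0.24 (adjusted p = 0.0455). The Crym call was lost without any 1 of vehicle replicates 2, 3, 4 and 5 and DE-71 replicates 1, 4 and 5 (adjusted p up to 0.158, range 0.0251 to 0.158). Dio1, the deiodinase that activates thyroxine (-0.41 ± 0.23, adjusted p = 0.392), Thrsp, a gene induced by thyroid hormone (0.49 ± 0.20, adjusted p = 0.201), and Ttr, transthyretin (-0.04 ± 0.04, adjusted p = 0.722), were not called.

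In the growth hormone axis 1 of 14 genes was called (7.1%, against 3.9% of all genes). Socs2, a growth hormone target that feeds back on its signalling, lay at 8.37, 8.88, 8.92, 8.7 and 9.39 in vehicle livers and at 6.37, 6.73, 8.3, 6.37 and 6.05 with DE-71. DE-71 replicate 3 lay just below the lowest vehicle liver and the other 4 far below it (-2.09 ± 0.35, 4.25-fold lower, adjusted p = 5.57e-04). Cish, another such feedback gene, changed by -1.55 (adjusted p = 0.0899), and Igf1, the growth factor the hormone induces, by -0.11 ± 0.08 (adjusted p = 0.524). Of 15 male-biased liver genes Cyp3a2 rose and Stac3 fell. Stac3 lay at 12.11 to 12.67 in vehicle livers and was spread from 8.32 to 12.37 with DE-71, with overlap (-1.52 ± 0.43, adjusted p = 0.0497). Its call was lost without any 1 vehicle liver or DE-71 replicate 1 or 4 (adjusted p up to 0.125, range 0.0084 to 0.288). Cyp2c11, the main male P450, lay at 13.73 to 14.06 and at 14.14 to 14.33 and was not called (0.30 ± 0.32, adjusted p = 0.708). Its groups did not overlap, and with the 10 arrays alone the SE was 0.08 and the adjusted p 0.112. Whether a larger rise could show at this high level was not tested.

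Of 13 female-biased genes 2 rose and 1 fell. Cyp2c12, the female steroid hydroxylase, lay at 9.45, 8.5, 8.97, 8.56 and 9.51 in vehicle livers and at 7.62, 8.01, 8.02, 7.86 and 7.81 with DE-71. The DE-71 livers were tightly grouped below all vehicle livers (-1.13 ± 0.17, 2.19-fold lower, adjusted p = 1.07e-04). Akr1b7, an aldo-keto reductase, rose by 1.36 ± 0.30 at a low level (3.90 ± 0.34 to 5.26 ± 0.49, adjusted p = 0.00978). Trim24, a nuclear receptor coregulator, rose by 0.95 ± 0.23 (adjusted p = 0.0181), lost without any 1 of vehicle replicates 2 and 3 and DE-71 replicate 5 (adjusted p up to 0.0661, range 0.0103 to 0.0707).

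Among called genes whose groups did not overlap, the lowest log2 change was that of Fbxl17l1, from 7.31, 7.04, 8.3, 7.16 and 6.54 in vehicle livers to 4.7, 4.61, 5.59, 4.32 and 5.14 with DE-71 (-2.40 ± 0.22, adjusted p = 4.78e-08, 1 of 2 probe sets called). The DE-71 values all lay below the array medians, and no detection call was used here to tell such values from background. Hhex, a homeobox factor needed for liver development, lay at 12.68, 12.57, 12.7, 12.06 and 11.46 in vehicle livers and at 10.94, 9.98, 11.27, 9.75 and 11.31 with DE-71. The groups came close, with vehicle replicate 5 just above DE-71 replicate 5 (-1.64 ± 0.26, 3.13-fold lower, adjusted p = 2.62e-04). Dusp1, an early-response phosphatase of MAP kinases, lay at 11.16, 11.63, 12.41, 10.68 and 11.28 in vehicle livers and at 9.53, 9.95, 10.47, 9.65 and 9.68 with DE-71, without overlap (-1.57 ± 0.33, adjusted p = 0.00567). Nim1k, a protein kinase gene, fell by 1.66 ± 0.28, Ccdc126 fell by 1.33 ± 0.16, the zinc finger gene Zfp189 fell by 1.20 ± 0.23 and Vps37b, a subunit of an endosomal sorting complex, fell by 1.08 ± 0.11. Cd63, a tetraspanin of lysosomes, fell by 1.01 ± 0.14. Lurap1l (-1.24 ± 0.29, adjusted p = 0.0123) lost its call without DE-71 replicate 4 (0.0535, range 0.00766 to 0.0535) and Dipk2a (-0.99 ± 0.23, adjusted p = 0.0123) without DE-71 replicate 5 (0.0515, range 0.00795 to 0.0544). Atxn7l1 (-1.04 ± 0.26, adjusted p = 0.0232) lost it without vehicle replicate 1 or DE-71 replicate 1, 2 or 4 (adjusted p up to 0.0759, range 0.00953 to 0.108).

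Of 16 p53 and DNA damage genes 2 rose and 2 fell. Cdkn1a, the cell cycle inhibitor p21, lay at 9.73, 9.61, 9.39, 10.06 and 9.53 in vehicle livers and at 8.04, 9.1, 8.76, 7.58 and 8.42 with DE-71. All DE-71 livers were lower, most of all replicate 4 (-1.29 ± 0.22, 2.44-fold lower, adjusted p = 8.17e-04). Aen, a nuclease induced by p53, fell by 0.64 ± 0.13 without overlap (adjusted p = 0.0056). The members that rose, Gadd45b and Ephx1, also stand among the CAR and PXR targets. Mdm2 (0.12), Ccng1 (-0.37) and Gadd45g (-1.64, adjusted p = 0.103) were not called. Of 29 cell cycle genes 1 was called (3.4%, against 3.9% of all genes). Mcm2, a subunit of the replicative helicase, rose by 0.53 ± 0.13 (adjusted p = 0.0232). That call was lost without any 1 of vehicle replicates 1, 3 and 5 and DE-71 replicates 3 and 5 (adjusted p up to 0.0651, range 0.0151 to 0.105). The mitotic kinase Cdk1 stood at 5.13 ± 0.58 and 5.21 ± 0.33 (adjusted p = 0.907).

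Of 17 measured clock genes 4 were called, in both directions. Nr1d1, which encodes the clock repressor REV-ERB alpha, lay at 4.41, 4.85, 5.94, 4.69 and 5.7 in vehicle livers and at 6.82, 6.19, 7.73, 8.42 and 9.4 with DE-71. The DE-71 livers were spread over more than 3 log2 units, all above the vehicle livers (2.60 ± 0.39, 6.04-fold, adjusted p = 1.43e-04). Nr1d2, its paralogue, lay at 7.52, 7.26, 8.85, 7.57 and 7.76 and at 8.66, 8.14, 9.16, 9.78 and 10.5, with overlap at vehicle replicate 3 (1.46 ± 0.30, adjusted p = 0.00567). Cry1, a repressor of the opposite phase, lay at 9.03, 8.82, 7.65, 8.51 and 8.61 and at 7.49, 7.95, 7.45, 7.03 and 6.78, with overlap again at vehicle replicate 3 (-1.18 ± 0.22, adjusted p = 0.0023). Bhlhe40 fell by 0.94 ± 0.22 (adjusted p = 0.0125). With the 10 arrays alone Nr1d1 kept its call (0.0403), while Nr1d2 (0.134), Cry1 (0.0583) and Bhlhe40 (0.0608) did not, the ranges being 5.78e-04 to 0.134, 1.67e-04 to 0.0583 and 0.00449 to 0.0608. Per3 (1.14, adjusted p = 0.056), Bmal1 (-0.79, adjusted p = 0.195) and Dbp (1.37, adjusted p = 0.18) were not called, and for Dbp only DE-71 replicates 4 (7.81) and 5 (9.95) stood above the 5.08 to 5.9 of all other livers. The hour of sampling is not given in the sources used here.

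Amino acid and urea metabolism had 3 of 24 genes lower and 0 higher, with a median of -0.21 and 21 of 24 below 0. Glul, which makes glutamine in the hepatocytes around the central vein, lay at 11.79, 11.84, 11.78, 11.63 and 11.73 in vehicle livers and at 10.61, 11.22, 10.44, 10.77 and 10.97 with DE-71. Vehicle livers lay in a narrow band and all DE-71 livers were lower (-0.95 ± 0.12, 1.93-fold lower, adjusted p = 2.07e-05), with 3 of 3 Glul probe sets called. Oat, ornithine aminotransferase of the same zone, fell by 1.05 ± 0.28 with DE-71 replicate 2 inside the vehicle range (adjusted p = 0.0387). Its call was lost without any 1 of vehicle replicates 2, 3 and 5 and DE-71 replicates 3, 4 and 5 (adjusted p up to 0.126, range 0.0078 to 0.126). Sdsl, related to serine dehydratase, fell by 0.40 ± 0.11 (adjusted p = 0.0453), lost without any 1 vehicle liver or DE-71 replicate 3, 4 or 5 (adjusted p up to 0.13, range 0.0226 to 0.132). With the Gapdh covariate the list's median was -0.08, and without DE-71 replicate 5 it was -0.12 with 1 of 24 genes called. Of 12 pericentral genes Glul and Oat fell while Cyp1a2 and Tbx3 rose. Tbx3, a transcription factor, lay at 5.82 to 7.35 in vehicle livers, highest in replicate 5, and at 7.39 to 8.8 with DE-71 (1.65 ± 0.28, adjusted p = 6.09e-04). Other pericentral markers such as Cyp2e1 (0.03), Axin2 (0.17) and Lgr5 (0.08) were not called. Sdsl was the 1 of 13 periportal genes called, the list's median being -0.24 with 12 below 0, and -0.09 with 10 below 0 under the Gapdh covariate. In glucose metabolism 1 of 12 genes was called, the fructose kinase Khk (-0.34 ± 0.09, adjusted p = 0.0378), lost without any 1 of vehicle replicates 1, 2, 4 and 5 and DE-71 replicates 3, 4 and 5 (adjusted p up to 0.0989, range 0.009 to 0.108).

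The 30 measured subunits of the mitochondrial respiratory chain all had a change below 0, between -0.41 and -0.01, with a median of -0.17, and 0 were called. Without DE-71 replicate 5 the median was -0.10, with 28 below 0 and 2 above. By limma 14 of the 30 had an unadjusted p under 0.05, against 5076 of all 31042 probe sets. For Ndufb8, a complex I subunit with the lowest change (-0.41 ± 0.19, adjusted p = 0.281), DE-71 replicate 5 lay at 7.52 and all other livers at 8.44 to 9.18. Of 29 proteasome subunits 3 rose and 0 fell (median 0.09): Psmd2 (0.38 ± 0.07, adjusted p = 0.00106), Psmd7 (0.35 ± 0.08, adjusted p = 0.00824) and Psmd11 (0.26 ± 0.07, adjusted p = 0.0472). Without DE-71 replicate 5 the list's median was 0.16 with 29 of 29 members above 0, against 24 of 29 with all arrays, and 3 were higher. The Psmd11 call was lost without any 1 of vehicle replicates 1 to 4 and DE-71 replicates 2, 4 and 5 (adjusted p up to 0.13, range 0.0289 to 0.134). Neither endoplasmic reticulum folding (21 genes), acute phase proteins (19) nor complement and coagulation (22) had a called member, and by limma 1, 1 and 1 of them had an unadjusted p under 0.05. A2m, an acute phase protease inhibitor, lay at 7.69, 7.56, 6.78, 7.43 and 8.31 and at 6.29, 6.36, 6.19, 5.81 and 6.51 with DE-71. Its groups did not overlap, yet the change of -1.32 ± 0.41 was not called when all 30 arrays gave the spread (adjusted p = 0.0753); with the 10 arrays alone it was (0.0196).

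Among 21 interferon response genes Cxcl11, a chemokine, rose by 0.67 ± 0.12 (adjusted p = 8.68e-04) and 0 fell. That 1 call is 4.8% of the list, near the 3.9% of all genes. Of 13 retinoid genes Aldh1a1 and Stra6 (0.33 ± 0.07, adjusted p = 0.00394) rose. Stra6 had 1 of 5 probe sets called, and its adjusted p with the 10 arrays alone was 0.0502, range 0.00309 to 0.0502. Of 15 haem and iron genes Blvrb, a biliverdin reductase, rose by 0.38 ± 0.08 (adjusted p = 0.00824, and 0.0646 with the 10 arrays alone, range 0.00337 to 0.0646). Alad, an enzyme of haem synthesis, fell by 0.34 ± 0.09 (adjusted p = 0.0378), lost without any 1 of vehicle replicates 2 to 5 and DE-71 replicates 2, 4 and 5 (adjusted p up to 0.133, range 0.0233 to 0.152). Slc40a1, the iron exporter, fell by 0.32 ± 0.09 (adjusted p = 0.0468), lost without any 1 of vehicle replicates 1, 2 and 5 and DE-71 replicates 3, 4 and 5 (adjusted p up to 0.145, range 0.0118 to 0.243). Of 16 fetal and neonatal genes 1 was called (6.2%, against 3.9% of all genes). Epcam, an epithelial adhesion gene that is also a cholangiocyte marker, rose (8.46 ± 0.32 to 9.59 ± 0.30, change 1.13 ± 0.18, adjusted p = 3.17e-04). The other 6 measured cholangiocyte markers, Krt19 (-0.23) and Krt7 (0.05) among them, were not called.

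Of 11 measured markers of Kupffer cells, the resident macrophages of liver, 1 was called lower and 0 higher. All 11 had a change below 0 (median -0.40, range -0.68 to -0.22), and their mean level was 9.09 to 9.67 in vehicle livers and 8.57 to 9.25 in DE-71 livers, with overlap. Aif1 was the 1 called (-0.64 ± 0.17, adjusted p = 0.0323), a call lost without any 1 of vehicle replicates 2 and 4 and DE-71 replicates 2, 4 and 5 (adjusted p up to 0.11, range 0.00527 to 0.155). C1qb, a complement component that these cells make, changed by -0.68 (adjusted p = 0.104) and the scavenger receptor Cd163 by -0.44 (adjusted p = 0.107). The list's median was -0.33 without DE-71 replicate 5, and 0 were called in that fit, with the Gapdh covariate or with the 10 arrays alone. Of 13 lymphocyte markers Cd8a fell by 0.52 ± 0.13 at a low level, below the array medians in DE-71 livers (adjusted p = 0.03), lost without any 1 of vehicle replicates 2, 3 and 4 and DE-71 replicates 4 and 5 (adjusted p up to 0.0998, range 0.00649 to 0.157). Endothelial (11), stellate and fibroblast (15), neutrophil (7), erythroid (8), adipose (7) and exocrine pancreas (9) markers had 0 calls, with 1, 1, 0, 0, 0 and 1 of them at an unadjusted p under 0.05 by limma. The stellate cell marker Dcn lay at 6.54 to 7.45 in vehicle livers and at 5.67 to 6.29 with DE-71, without overlap. Its change of -0.88 ± 0.37 was not called with all 30 arrays (adjusted p = 0.208), but was with the 10 adult arrays alone (0.0286). Without DE-71 replicate 5 the lists of Kupffer cell, lymphocyte, periportal, glucose and cell cycle genes had 0 calls, and haem and amino acid starvation genes 1 each. The part of cell makeup in the other results was not tested.

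**Figure D3:**
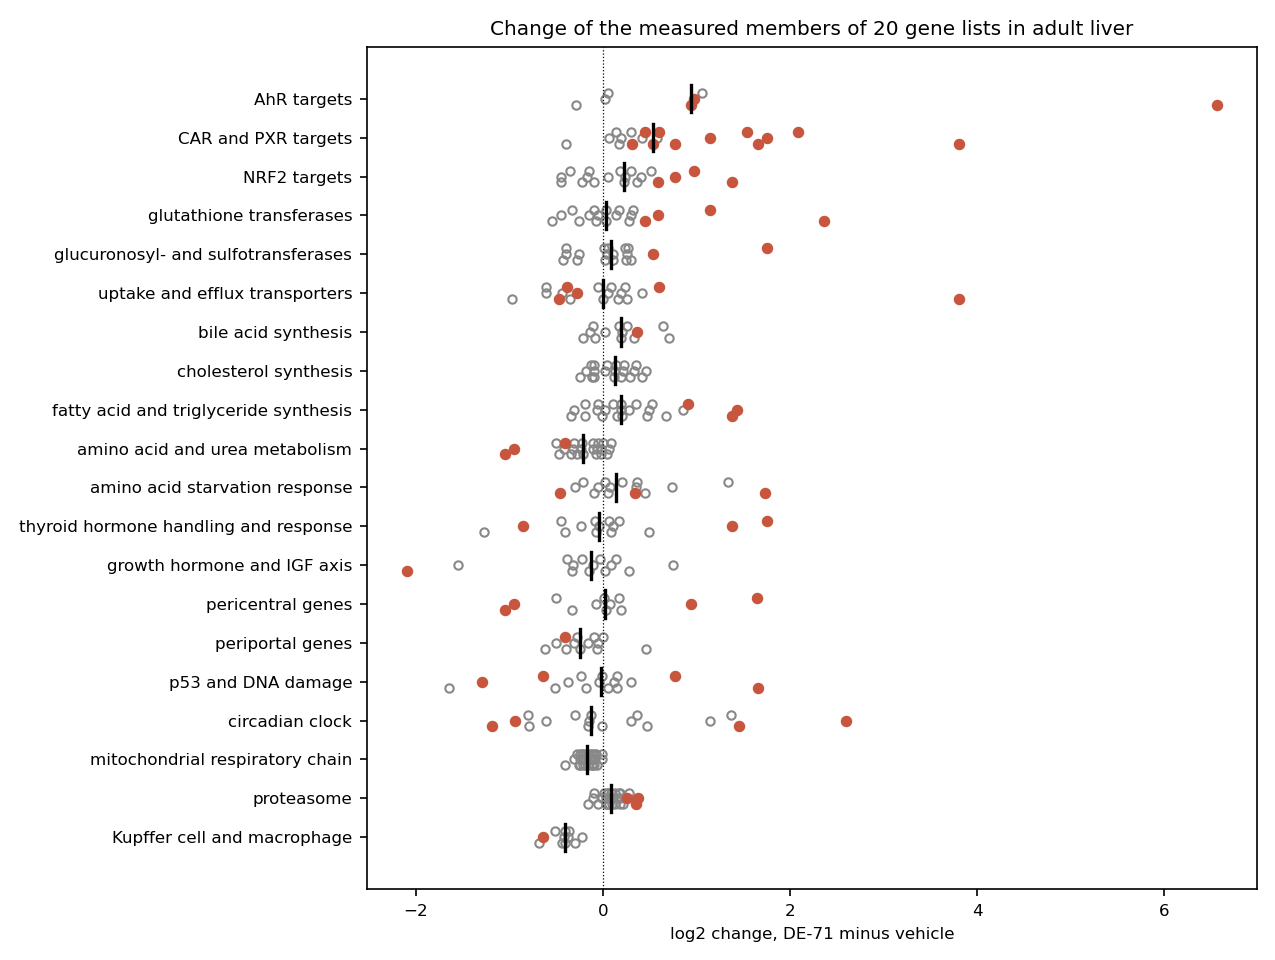
Each point is the log2 change of 1 gene, DE-71 minus vehicle in adult livers; filled points were called at a false discovery rate of 0.05, open points were not, and black bars are list medians. CAR and PXR targets have 11 filled points, all above 0, while the 30 respiratory chain genes lie below 0 with 0 filled.

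The adult changes differed in part from those in male pups of postnatal day 22. These pups belonged to groups of 0 or 50 mg/kg, dosed through their dams and directly up to the day before. The dose changes at the 2 ages share no arrays and lay each within 1 array batch, so the test of their difference compares changes and not levels. The male pups were all in batch 1 and the adults all in batch 2. A difference in dose change between the ages therefore cannot be told apart from one between the batches. It called 352 genes (2.48%), 160 with a change more positive in adults and 192 with a change more positive in pups, and 78 of the 352 were also called in adults. Over probe sets it called 579, and 365 without vehicle pup replicate 5, 376 without DE-71 pup replicate 4 and 373 without adult DE-71 replicate 4. Of the 555 genes called in adults, 226 were called in the same direction in male pups at 0.05, and 9 in the opposite direction. The 226 are 40.7% of the adult genes and 11.2% of the 2023 pup genes. Those 2023 were called, in either direction, among all 14217 genes. Abcc3 had a larger log2 rise in adults (3.81 against 1.69 in pups, difference 2.11 ± 0.35, adjusted p = 0.00121). It started higher in pups, at 8.96 ± 0.35 with vehicle and 10.65 ± 0.23 with DE-71, against 5.22 ± 0.44 and 9.03 ± 0.62 in adults. Nr1d1 (2.60 against 0.54, difference 2.06 ± 0.55, adjusted p = 0.0457), Asns (1.73 against -0.86, 2.59 ± 0.58, adjusted p = 0.0157), Tpd52l1 (1.81 against 0.13, 1.69 ± 0.27) and Elovl6 (1.43 against -0.63, 2.06 ± 0.47) likewise had more positive changes in adults. Vehicle means were higher in pups than in adults for Nr1d1 (7.47 against 5.12), Asns (8.12 against 5.25) and Elovl6 (10.39 against 6.09). For Tpd52l1 they were lower in pups (3.72 against 4.45). The part of these starting levels was not tested.

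Of the 15 largest adult decreases 6 had a dose change called different from that in pups, against 2.48% of all genes. The 15 were chosen by the same adult values that this test uses, which favours such calls. The count is therefore not independent support for a difference between the ages. Socs2 changed by -2.09 against 0.61 in pups (difference -2.70 ± 0.49, adjusted p = 0.00281), Fbxl17l1 by -2.40 against 0.13 (-2.53 ± 0.32, adjusted p = 2.36e-05), Hhex by -1.64 against -0.08 (-1.56 ± 0.36, adjusted p = 0.0204) and Cyp2c12 by -1.13 against 0.61 (-1.74 ± 0.23, adjusted p = 8.58e-05). Ccdc126 changed by -1.33 against -0.19 (-1.14 ± 0.23, adjusted p = 0.00711) and Vps37b by -1.08 against -0.15 (-0.93 ± 0.15, adjusted p = 8.39e-04). In vehicle pups Socs2 (5.54 ± 0.61) and Fbxl17l1 (4.54 ± 0.27) lay below their mean levels in DE-71 adults (6.76 and 4.87). Whether a fall could show at such low pup levels was not tested. Hhex, Cyp2c12, Ccdc126 and Vps37b lay higher in vehicle pups than in DE-71 adults. For Cyp1a1 (6.56 against 4.74, 1.82 ± 0.62, adjusted p = 0.136), Snx10 (3.27 against 3.33, -0.06 ± 0.42, adjusted p = 0.971) and Por (1.15 against 1.13, 0.02 ± 0.20, adjusted p = 0.979) the difference did not pass the test. In the cholesterol synthesis list, where 0 of 20 genes were called in adults, 14 were lower in male pups at 0.05. Of all 14217 genes, 2023 were called in male pups in either direction. The difference between the ages was called for 4 of the 20, against 2.48% of all genes.

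The 8 largest differences in the negative direction included genes that were not called between the adult groups. Rup2, a urinary protein gene of maturing rat liver, lay at 14.78 to 14.91 in adult vehicle livers and 14.82 to 14.94 with DE-71 (0.02 ± 0.79), while it rose by 7.81 in pups (difference -7.79 ± 1.11, adjusted p = 1.66e-04). Whether probe sets at such high adult levels could show a further rise was not tested, which applies to the following 3 genes too. Sult1e1, oestrogen sulfotransferase, lay at 14.24 to 14.43 and, lower and without overlap, at 13.91 to 14.21 with DE-71 in adults (-0.28 ± 0.35, against 5.13 in pups). With the 10 adult arrays alone the SE for Sult1e1 was 0.08 and the adjusted p 0.144. Cyp2c13 (-0.05 against 4.40) lay at 14.09 ± 0.06 and Cyp2c7 (0.17 against 4.57) at 14.33 ± 0.09 in adult vehicle livers. Cyp2a3 (0.03 against 5.23) and Cltrn (-0.09 against 4.82) lay below the array medians in both adult groups, at 4.38 ± 0.12 and 3.68 ± 0.15 in vehicle livers. H19, an imprinted RNA of fetal liver, lay at 6.75 ± 0.16 and 6.98 ± 0.22 in adults (0.23 against -3.74 in pups, difference 3.97 ± 0.32, adjusted p = 9.90e-09), and Nfe2, a blood cell factor, at 5.43 ± 0.73 and 5.11 ± 0.24 (-0.32 against -3.05, difference 2.72 ± 0.58).

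**Figure D4:**
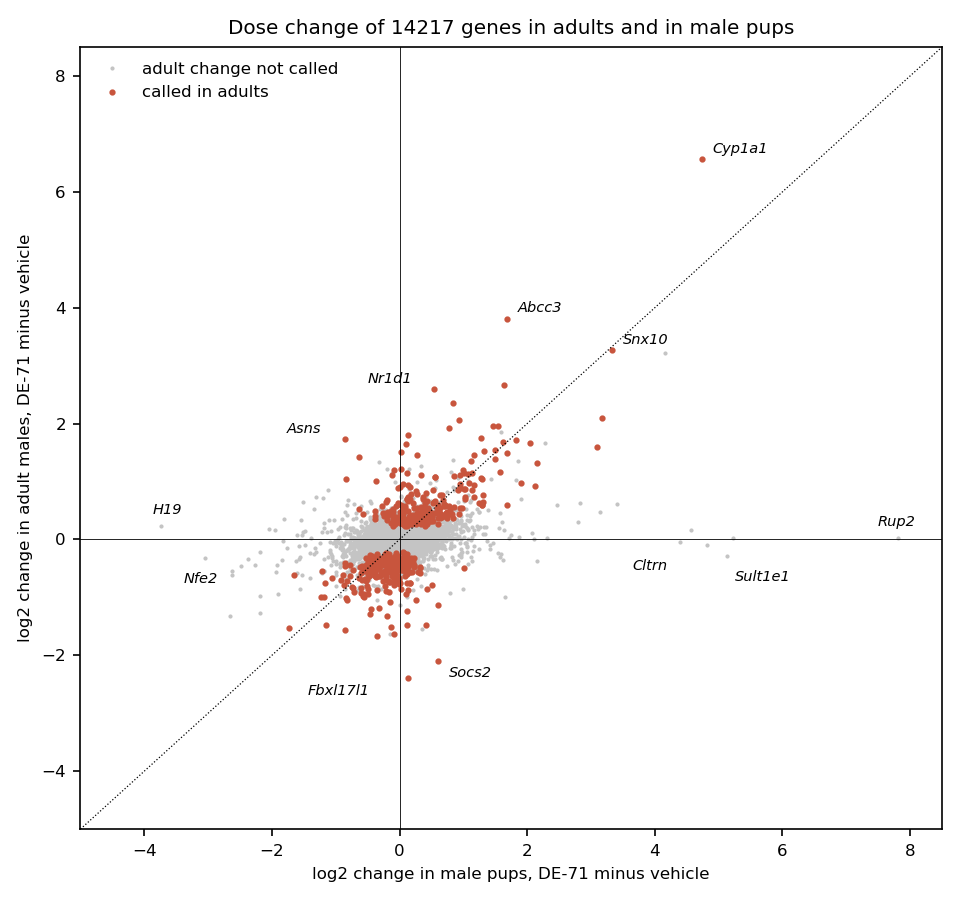
Each of 14217 genes is placed by its log2 change in male pups (horizontal) and in adult males (vertical), DE-71 minus vehicle; red genes were called in adults and the dotted line marks equal change. Cyp1a1 (4.74 and 6.56) and Snx10 (3.33 and 3.27) rose at both ages, whereas Rup2 (7.81 and 0.02) and H19 (-3.74 and 0.23) changed in pups and lie near 0 in adults.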

How the data were processed

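Affymetrix rat genome arrays, read from 50 ng of total RNA after 2 labelling cycles per the labels' protocols, were used as deposited log2 values, which the authors made by RMA per the submitters' processing notes; its version is not given in the sources used here. Of 31099 probe sets, 57 controls were left out, and 20826 of the 31042 tested named 1 gene, 436 several and 9780 none. Each of 14217 genes was read from its brightest probe set, and no called gene had probe sets called in both directions. For some named genes only part of the probe sets were called. Among them were Tbx3 (2 of 4), Dipk2a and Cd8a (1 of 3 each). Keap1, Elovl6, Acaca, Por, Aif1, Psmd7 and Atxn7l1 had 1 of 2 each. In limma 3.58.1 (R 4.3.3), 6 group means were fitted over 30 arrays, those of adult males, male pups and female pups at 0 and 50 mg/kg. The p-values were adjusted by Benjamini-Hochberg over all probe sets tested, with calls at 0.05. The 2 male ages were compared by the difference of their dose changes. The scripts were tested on simulated data.

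The members and gene lists were chosen with earlier results of these data known. Genes named are index genes, the 15 largest changes each way among called genes whose groups did not overlap, up to 4 called members of each list with the largest change (or 2 where none was called), and the 8 largest age differences each way. Abcg5, Abcg8, Acly, Alas1, Aldh3a1, Atf4, Axin2, Bmal1, C1qb, Ccng1, Cd163, Cish, Cyp2c6v1, Cyp2e1, Dbp, Ddit3, Fasn, Gadd45g, Hmox1, Krt19, Krt7, Lgr5, Mdm2, Per3, Phgdh, Slc10a1, Srxn1, Trib3 and Txnrd1 lie outside that rule and were chosen after their values were seen. Alternatives were the 10 adult arrays alone, a replicate block, renewed quantile normalization, equal array medians, a minimum mean log2 of 6, other shrinkage, array weights, the Gapdh covariate, a false discovery rate of 0.01 and leaving out each array. The number of arrays, 5 per group, limits the precision.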

Additional observations from a re-analysis of the deposited data

Results flagged for a closer look

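In groups of 5 livers, 15 of 270 groups of named-gene values held a liver apart from the other 4 by Dixon's test, where chance gives about 13.5. High vehicle livers were replicate 3 for Abcc3 (5.99, the others 4.98 to 5.14), replicate 5 for Sema3c (5.03), Abcc2 (11.43) and Tbx3 (7.35), replicate 1 for Atxn7l1 (8.8) and replicate 4 for Ahr (6.74). Low vehicle livers were replicate 5 for Ccdc126 (8.86) and Keap1 (8.53), replicate 3 for Cyp1a2 (12.26) and replicate 1 for Mgst2 (11.56). Among DE-71 livers, replicate 2 was high for Zfp189 (7.67) and for Amy2a3, a pancreatic amylase (5.65, the others 3.17 to 3.5), and low for Pros1 (11.48). DE-71 replicate 4 was high for Gstm3 (8.18) and replicate 5 low for Cyp1a2 (14.08). DE-71 replicate 5 was also high in the 3' minus 5' differences of Gapdh (2.25) and Actb (3.78) and in the interquartile range of its probe sets (3.4, the others 3.29 to 3.32).

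The dose change differed between adults and male pups, by limma's test of the difference, for a number of named genes. More positive changes in adults were found for H19 (3.97), Nfe2 (2.72), Asns (2.59), Qsox1 (2.23), Aacs (2.16), Noct (2.16), Abcc3 (2.11), G0s2 (2.11), Nr1d1 (2.06), Elovl6 (2.06), Cyp8b1 (1.88), Tpd52l1 (1.69), Tbx3 (1.55), Msmo1 (1.14), Nr1h4 (0.75), Fcgr2b (0.64) and Nr1i2 (0.54). More negative changes in adults were found for Rup2 (-7.79), Sult1e1 (-5.41), Cyp2a3 (-5.19), Cltrn (-4.91), Cyp2c13 (-4.45), Cyp2c7 (-4.40), Cxcl9 (-2.80), Socs2 (-2.70), Fbxl17l1 (-2.53), Cyp2c11 (-2.50), Cyp2c12 (-1.74), Hhex (-1.56), Ccdc126 (-1.14), Abcc2 (-1.09), Xbp1 (-0.99), Vps37b (-0.93), Gsta4 (-0.70) and Pros1 (-0.46).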

How the results depend on the processing

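All 78 called genes among the 135 named kept their direction under every alternative fitted, and 47 of them were called under every one. With the 10 adult arrays alone 269 probe sets (144 higher, 125 lower) and 173 genes were called, and at a false discovery rate of 0.01 360 (183 higher, 177 lower) and 225 genes. Leaving out an array in turn gave 597 to 1032 probe sets (286 to 483 higher, 311 to 573 lower) and 366 to 617 genes, the lowest counts coming without DE-71 replicate 4, and 329 lower without DE-71 replicate 5. For age by dose, 579 probe sets were called (258 higher, 321 lower), against 161 (57 higher, 104 lower) at 0.01, 161 higher with the 20 male arrays alone and 169 higher with no shrinkage. Leaving out an array gave 365 to 703 (149 to 345 higher, 209 to 375 lower), the low counts coming without vehicle pup replicate 5 (365, 149 higher) or 2 (167 higher), DE-71 pup replicate 4 (376, 156 higher) and adult DE-71 replicate 4 (373, 164 higher, 209 lower). The cause was not tested. Same-number livers were not paired: the 5 correlations of their deviations ran from -0.3358 to 0.08342, and with the replicate number as a block 961 probe sets (418 higher, 543 lower) were called. Equal array medians and renewed quantile normalization moved the median change of all probe sets to -0.0048 and 0.0037.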

Other observations

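Further genes outside the lists and the naming rule, chosen after their values were seen, changed without overlap of the groups. App, the amyloid precursor protein, lay at 10.76, 10.56, 10.38, 10.47 and 11.03 in vehicle livers and at 12.17, 11.62, 12.17, 12.62 and 12.27 with DE-71 (1.53 ± 0.13, adjusted p = 1.84e-08). Zdhhc2, a protein palmitoyltransferase, rose by 1.59 ± 0.15, Sri, the calcium-binding protein sorcin, by 1.20 ± 0.14 and Egln3, an oxygen-sensing prolyl hydroxylase, by 1.32 ± 0.18. Pir, an iron-binding nuclear protein, rose by 1.16 ± 0.17. Each of these 5 genes was called under every alternative fitted, the largest adjusted p being 0.00779 (Egln3, with the 10 arrays alone).

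Ugt2b, also chosen after its values were seen, was at opposite extremes within each group. It lay at 13.68, 5.61, 5.35, 13.17 and 4.95 in the vehicle livers and at 13.18, 13.34, 13.29, 5.61 and 13.39 in the DE-71 livers. High values were found in 2 of 5 vehicle and 4 of 5 DE-71 livers, and the change of 3.21 ± 1.72 was not called (adjusted p = 0.361).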
